A study of Mus musculus with 24 samples.

Results

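Mitochondrial ribosomal proteins were followed as transcripts on bead arrays of 4 mouse myeloma cell lines treated with bortezomib. The members are the genes whose platform symbol starts with Mrpl (large subunit) or Mrps (small subunit) followed by a digit, each read by its probe with the highest mean signal. The rule found 76 genes among 19057 genes with a named probe, 48 of the large and 28 of the small subunit. A probe was kept if it stood above background on at least 2 arrays, which left 73 members among 11133 genes tested, 46 of the large and 27 of the small subunit. Mrpl19, Mrpl32 and Mrps14 did not pass this filter, and Mrpl41 and Mrps36, which the annotation used here pairs with no probe, were not analysed here. The symbols follow the order of naming and not always the structure: the proteins of Mrps30 and Mrps18a lie in the large subunit of the mammalian mitochondrial ribosome, although they are counted here as small subunit genes by symbol.

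All lines come from multiple myeloma of mice carrying Bcl-XL and Myc transgenes together, on an FVBN by BL/6 strain background, so no group lacks the transgenes. Resistance to bortezomib is given in the labels for 595sp VR and for 638bm VR, and sensitivity for 595sp and 638bm. Bortezomib was used at 33 nM, and each line was sampled at 0 h (untreated), 2, 8, 16 and 24 h, the last time on 2 arrays and the others on 1, which makes 24 arrays. Bortezomib is a drug that inhibits the proteasome. The 2 lines of an arm serve as its replicates (n = 2 lines), and each resistant line is paired with the sensitive line of the same name. The labels do not state that the arrays come from separate cultures. For changes from 0 h, the fit removes each line's own level. Its p-values measure how far the lines of an arm differ in their changes, with an estimate of spread shared by both arms and all times. They do not measure a spread between cultures.

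The mitochondrial ribosome translates the few messages encoded by mitochondrial DNA, which all specify core subunits of the respiratory chain and ATP synthase. Its RNA is made inside the organelle, whereas all of its proteins are encoded in the nucleus, translated in the cytosol and imported. The large subunit holds the peptidyl transferase centre and the exit tunnel, and the small subunit holds the decoding centre. Many of the proteins have bacterial counterparts, and others are found only in mitochondria. Myeloma cells are malignant plasma cells, which secrete large amounts of protein.

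Of the plasma cell markers examined, Xbp1, Irf4, Mzb1, Sdc1 and Slamf7 stood above background on 24 of 24 arrays, whereas Prdm1, Jchain and Tnfrsf17 did so on 0. Of the markers of other cell types, Cd3g (T cell) stood above background on 6 resistant and 6 sensitive arrays, and Csf1r (myeloid) on 3 resistant and 8 sensitive arrays. Cd3e did so on 3 arrays, and Itgam and Pdgfrb on 1 each. Cd8a, Lyz2, Alas2, Col1a1 and Col1a2 did so on 0. Their part in the results was not tested. Between 15267 and 17669 probes (33.7 to 39%) stood above background on an array. The background itself differed between blocks of 6 columns of the table, with a log2 level of 5.44 to 5.54 in the first block and 5.86 to 6.18 in the others. Within these bulk samples, a smaller number of cells of one kind and less RNA per cell cannot be told apart.

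Promoter windows were available from RefSeq (GRCm38.p6) for 67 of the 76 members, each with 250 bases before and 50 after the annotated start. They were searched on both strands for 5 motifs, and a match is a description of letters and not a binding site. The stretches below belong to members that rose in the sensitive lines at 24 h and show a motif in capitals each, the others being in lower case, 5′ to 3′ on the gene's strand. The first is the core of the motif of NRF1, a regulator of nuclear genes for mitochondria, with 2 overlapping matches in opposite directions. The next pair hold the YY1 motif just after the start, and the pair after that the ETS motif. The last shows 2 units of the heat shock element facing each other.
Mrpl9 (chr3:94443268-94443359, + strand, GRCm38.p6): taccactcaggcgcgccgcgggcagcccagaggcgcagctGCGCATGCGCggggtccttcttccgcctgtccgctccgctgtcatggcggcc
Mrpl49 (chr19:6057726-6057779, - strand, GRCm38.p6): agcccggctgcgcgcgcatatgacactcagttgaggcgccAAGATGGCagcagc
Mrps7 (chr11:115604118-115604169, + strand, GRCm38.p6): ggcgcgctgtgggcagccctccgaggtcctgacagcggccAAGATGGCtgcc
Mrps18c (chr5:100798562-100798651, + strand, GRCm38.p6): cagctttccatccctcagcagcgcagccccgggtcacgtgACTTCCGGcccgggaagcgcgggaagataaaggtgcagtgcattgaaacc
Mrps22 (chr9:98601650-98601730, - strand, GRCm38.p6): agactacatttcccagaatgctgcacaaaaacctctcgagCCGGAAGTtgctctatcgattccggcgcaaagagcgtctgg
Mrpl46 (chr7:78783152-78783241, - strand, GRCm38.p6): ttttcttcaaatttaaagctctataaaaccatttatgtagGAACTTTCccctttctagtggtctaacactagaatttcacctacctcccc

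The ETS motif CCGGAAGT was found in the windows of 12 of 67 members (17.9%), against 4.31% of 27025 genes with a window. The YY1 motif AAGATGGC was also found in 12 of 67 members (17.9%, against 3.19% of all genes), 6 of the large and 6 of the small subunit. The NRF1 core GCATGCGC was found in 8 members (11.9%, against 3.05%), of which 7 belong to the large subunit (Mrpl9, Mrpl10, Mrpl17, Mrpl22, Mrpl32, Mrpl33 and Mrpl39) and 1 to the small (Mrps18b). CACGTG, the E-box that Myc binds, was found in 5 members (7.46%, against 8.09%), namely Mrpl2, Mrpl20, Mrpl36, Mrpl37 and Mrps18c. In Mrps18c the E-box directly precedes the ETS match in the stretch printed above. The paired heat shock units GAANNTTC or TTCNNGAA were found in 7 members (10.4%, against 17.0%). Thus the shares for the ETS, YY1 and NRF1 letters lay above those of all genes, and those for the E-box and the heat shock units did not. All genes with a window include genes that the arrays did not detect. No share among the genes tested is given, so an excess particular to members is not shown. Of the 17 members that rose in the sensitive lines at 24 h, 4 hold the YY1 motif, 2 the ETS motif, 2 the E-box, 1 the NRF1 core and 1 the heat shock units.

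**Figure D1:**
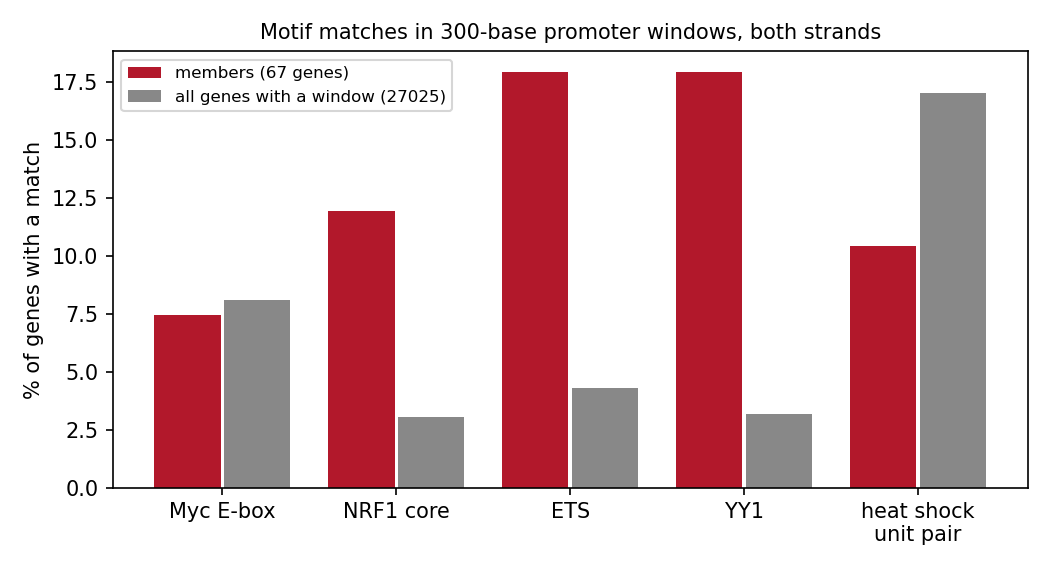
Share of genes (%) with at least 1 match to each motif in the 300-base promoter window, for the 67 members with a window (red) and for all 27025 genes with a window (grey). The members' bars stand above the grey ones for NRF1, ETS and YY1 and below them for the E-box and the heat shock units.

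Members often start beside a neighbour. Within 1000 bases, 25 of the 67 members (37.3%) had a gene on the opposite strand that starts in the other direction. The share was 12.3% of all 27025 genes with a window, detected on the arrays or not. The closest such start to Mrpl46 was that of another member, Mrps11, 42 bases away. Mrps12 lay 147 bases from Sars2, the mitochondrial seryl-tRNA synthetase, and Mrpl43 lay 116 bases from Twnk, the helicase of mitochondrial DNA. Mrpl47 lay 308 bases from Ndufb5, a subunit of respiratory complex I. In the data, Mrpl46 rose in the sensitive lines at 24 h, by 0.76 in 595sp and 0.69 in 638bm on the log2 scale. Its neighbour Mrps11 was 0.06 higher on its brightest probe and did not pass, and its other kept probe was 0.31 higher. Among the members that passed a test below, Mrpl21, Mrpl37, Mrpl49, Mrpl57, Mrps6, Mrps7, Mrps9 and Mrps28 overlap another annotated gene in RefSeq, and whether their probes lie in the shared stretch was not checked.

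Before treatment, most members were higher in the resistant than in the sensitive lines, in both subunits, but few passed the test for single genes. Resistant minus sensitive, the median difference in log2 intensity was 0.46 over the large subunit and 0.28 over the small subunit, beside 0.09 over all genes tested. In the 595sp pair the medians were 0.49 (large) and 0.34 (small), and in the 638bm pair they were 0.18 (large) and 0.38 (small), so the order of the subunits differed between the pairs. Both untreated arrays of the 595sp pair lie in the same block of table columns, while those of the 638bm pair lie in different blocks. In the mean of both pairs 68 of 73 members (93.2%) were higher in the resistant lines, against 57.4% of all genes, and 42 (57.5%) were higher in both pairs, against 33.5% of all genes. Members are bright, and over the 8598 genes above background on at least 12 arrays the median difference was 0.13.

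At an adjusted p under 0.05 (limma over all genes), 3 of 73 members (4.11%) were higher in the untreated resistant lines, against 2.3% of all genes, and 0 were lower, against 3.37% of all genes. Mrpl34, a large subunit protein with a bacterial counterpart, stood at 11.70 (595sp VR) and 10.87 (638bm VR), against 10.87 in 595sp and 10.17 in 638bm. The difference was 0.76 ± 0.20 (log2 ± SE, adjusted p = 0.0483), and it passed in 6 of the 11 alternative settings that kept all lines. Mrps10, which lies in the head of the small subunit, stood at 9.66 and 9.57 in 595sp VR and 638bm VR, against 8.66 and 8.93 in 595sp and 638bm. Its difference was 0.82 ± 0.19 (adjusted p = 0.0287) on its brightest probe. Its 4 kept probes gave differences of 0.82, 0.53, 0.58 and -0.54, the last of them from a probe above background on 13 arrays, and with their mean the difference was 0.35 and did not pass (adjusted p = 0.217). Mrpl21, another large subunit protein of bacterial descent, differed by 0.62 ± 0.16 (adjusted p = 0.0443), with 11.45 and 11.39 in the resistant against 10.64 and 10.96 in the sensitive lines. For all 3 genes each resistant line was above its own sensitive line, but for Mrpl34 the levels of 638bm VR and 595sp coincided at 10.87. A stricter rule asks in addition for 1 log2 unit or more in each pair, in a shared direction, and 0 members passed it, against 2.65% of all genes. At an unadjusted p under 0.05, 20 members passed (27.4%, against 21.5% of all genes). The spread in this fit is estimated largely from repeated times of only 4 lines, which are not independent, and the count in either direction moved to 8 (11%) without 595sp VR, 11 (15.1%) without 638bm VR and 29 (39.7%) without either sensitive line. The shares of all genes moved as well, to 19.9% without 595sp VR, 15.7% without 638bm VR, 34.5% without 595sp and 34.1% without 638bm.

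The higher level in resistant lines was also seen under treatment. At all 5 times and in both pairs the resistant line was above its sensitive line for 29 of 73 members (39.7%), against 9.89% of all genes. Members are brighter than most genes, and the share among brighter genes alone is not given here. The 29 members were 22 of 46 of the large subunit and 7 of 27 of the small subunit. No member was lower in the resistant line throughout, against 7.21% of all genes. The 5 times share the same lines and are not independent. Mrpl36 and Mrpl34 kept the widest distance, with smallest differences of 0.62 and 0.56 at any time in either pair. They were chosen after their values were seen. Mrpl36, a short zinc-binding protein of the large subunit in bacteria, ranged over the 6 arrays of a line from 10.77 to 11.13 in 595sp VR and, in 638bm VR, from 11.75 to 12.02. In the sensitive lines it ranged from 9.56 to 10.31 in 595sp and from 10.54 to 11.28 in 638bm. The ranges did not overlap within either pair, but 638bm lay across the range of 595sp VR.

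Averaged over times and pairs, Mrpl52 of the large subunit had the largest difference of these 29 members. Like that of Mrpl17, also picked after its values were seen, its difference was wider in the 638bm pair. Over the 6 arrays of a line, Mrpl52 ranged from 9.05 to 9.76 (595sp VR) and from 10.29 to 10.996 (638bm VR), against 8.43 to 9.79 (595sp) and 8.64 to 9.01 (638bm). In 595sp its 2 arrays at 24 h, at 8.89 and 9.79, were the most discordant pair of any member, and the second of them lay above every array of 595sp VR. Mrpl17 ranged from 11.27 to 11.40 (595sp VR) and from 11.45 to 11.70 (638bm VR), against 10.46 to 11.21 (595sp) and 9.81 to 10.26 (638bm), with no overlap within a pair.

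The lines of an arm did not always resemble each other. Mrps12, the counterpart of the bacterial decoding protein S12, had the widest untreated range of all members. Untreated 595sp VR read 10.30 and untreated 638bm VR 10.51, against 11.61 in 595sp and 9.05 in 638bm. Resistant minus sensitive it thus differed by -1.31 in the 595sp pair and by 1.46 in the 638bm pair, and the mean difference of 0.08 ± 1.06 did not pass (adjusted p = 0.975). Mrpl20 showed the contrast the other way round, at 9.59 (595sp VR) and 9.85 (638bm VR) against 7.99 (595sp) and 10.42 (638bm). Over all 4 untreated lines the median range was 0.86 over the large subunit, 0.88 over the small subunit and 0.89 over all genes tested.

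**Figure D2:**
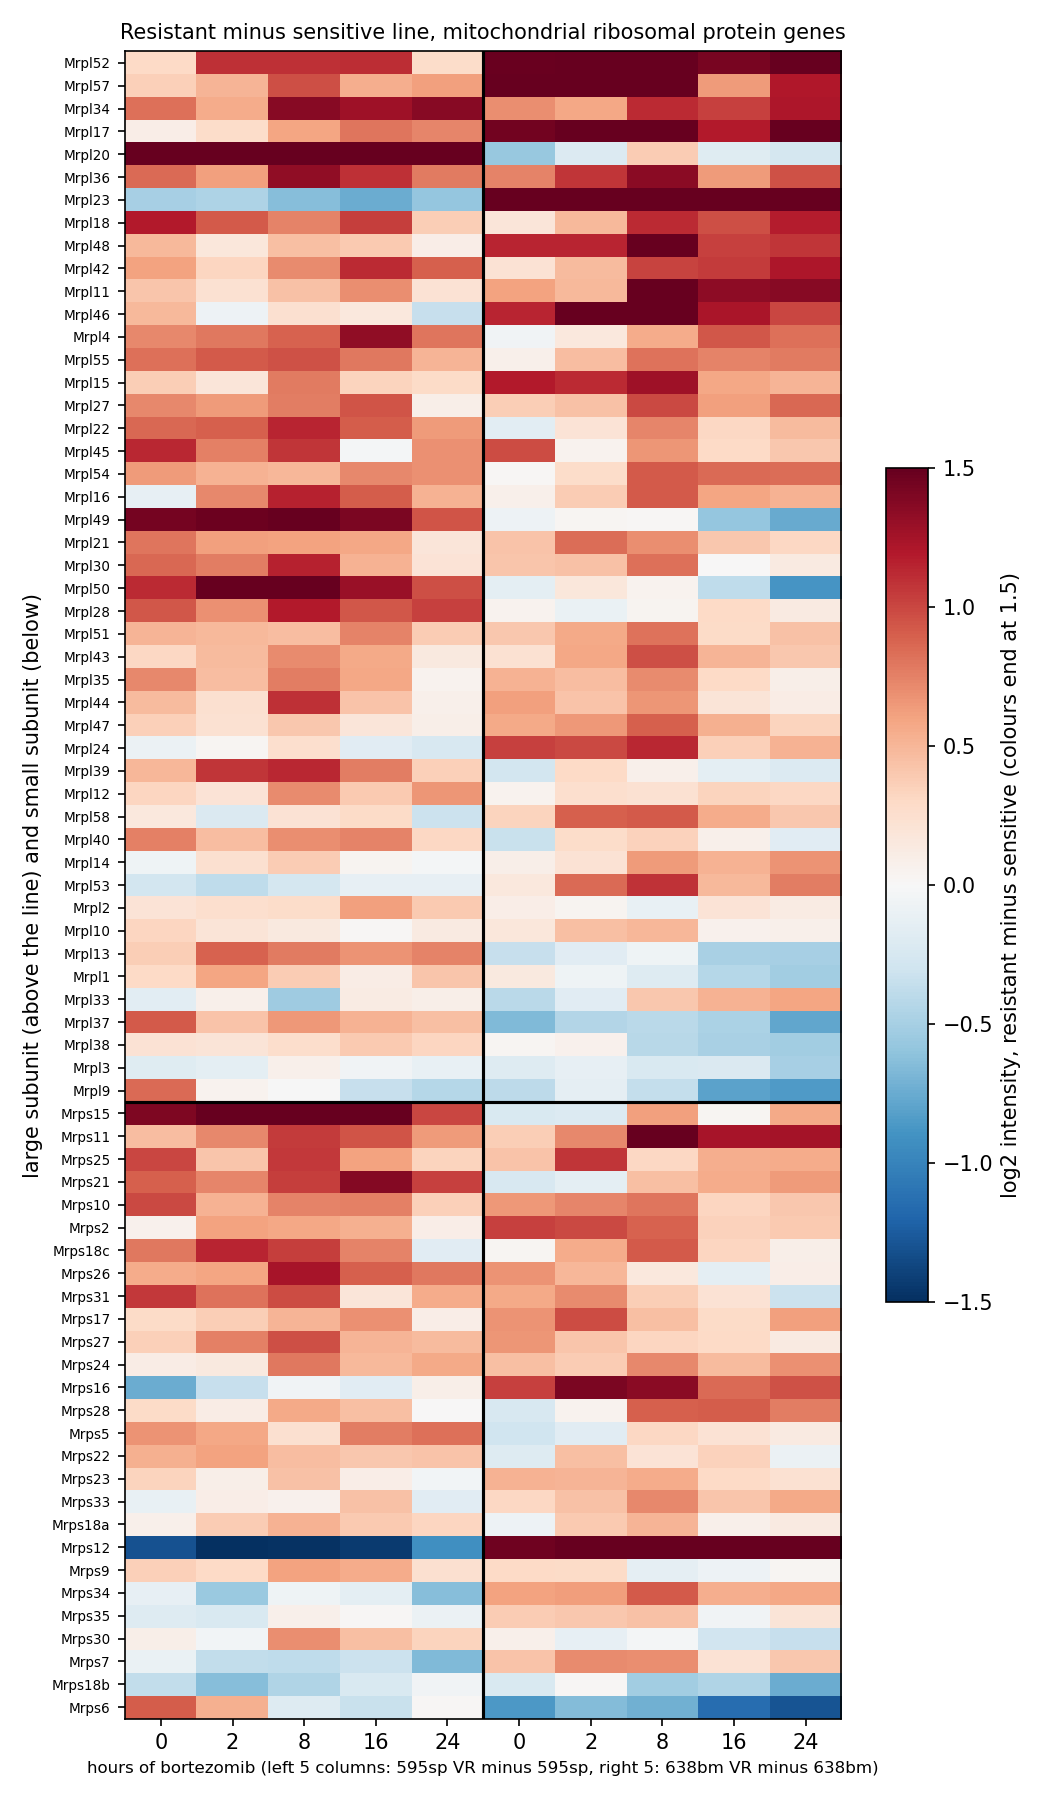
Resistant minus sensitive log2 intensity for each of the 73 members (rows, large subunit above the black line, small subunit below it) at 5 times of bortezomib, for the 595sp pair (left 5 columns) and the 638bm pair (right 5 columns), with the 24 h arrays averaged. Red means higher in the resistant line. Most cells are red in both pairs, and Mrps12 is blue in the 595sp pair and red in the 638bm pair.

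In the first 2 h, bortezomib changed no member past the threshold. The counts were 0 of 73 members in the resistant lines (1.22% of all genes, smallest adjusted p = 0.232, 3 members or 4.11% at an unadjusted p under 0.05, against 15.4% of all genes) and 0 of 73 in the sensitive lines (0.0539% of all genes, smallest adjusted p = 0.577, 1 member or 1.37% at an unadjusted p under 0.05, against 8.16% of all genes). Median changes at 2 h were -0.05 and 0.02 for the large subunit in 595sp VR and 638bm VR, and 0.00 and -0.16 in 595sp and 638bm.

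By 8 h the 2 arms stood on different sides of 0 for the large subunit. Its median change in 595sp VR was 0.05 and in 638bm VR 0.23, against -0.10 in 595sp and -0.11 in 638bm. The small subunit had medians of 0.08 (595sp VR) and 0.24 (638bm VR), against -0.11 in 595sp and 0.09 in 638bm. These medians were not tested against each other. Fitted over both lines, they were 0.13 (large) and 0.13 (small) in the resistant arm, and in the sensitive arm -0.16 (large) and -0.04 (small). All genes had a median of -0.004 in the resistant and -0.013 in the sensitive arm. The resistant change exceeded the sensitive change for 61 of 73 members (83.6%, against 50.4% of all genes), with a median difference of 0.31 for the large and 0.16 for the small subunit, beside 0.004 for all genes. Both arrays behind the 8 h change of 595sp, and both behind that of 638bm VR, lie within 1 block each. Those behind the 8 h changes of 595sp VR and 638bm lie in different blocks. Untreated 595sp VR lies in the first block and all its treated arrays in others, so each of its changes crosses blocks. The direct test of the difference passed for 0 of 73 members at 8 h, as it did for 0% of all genes, with 9 members (12.3%) at an unadjusted p under 0.05, against 6.97% of all genes.

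**Figure D3:**
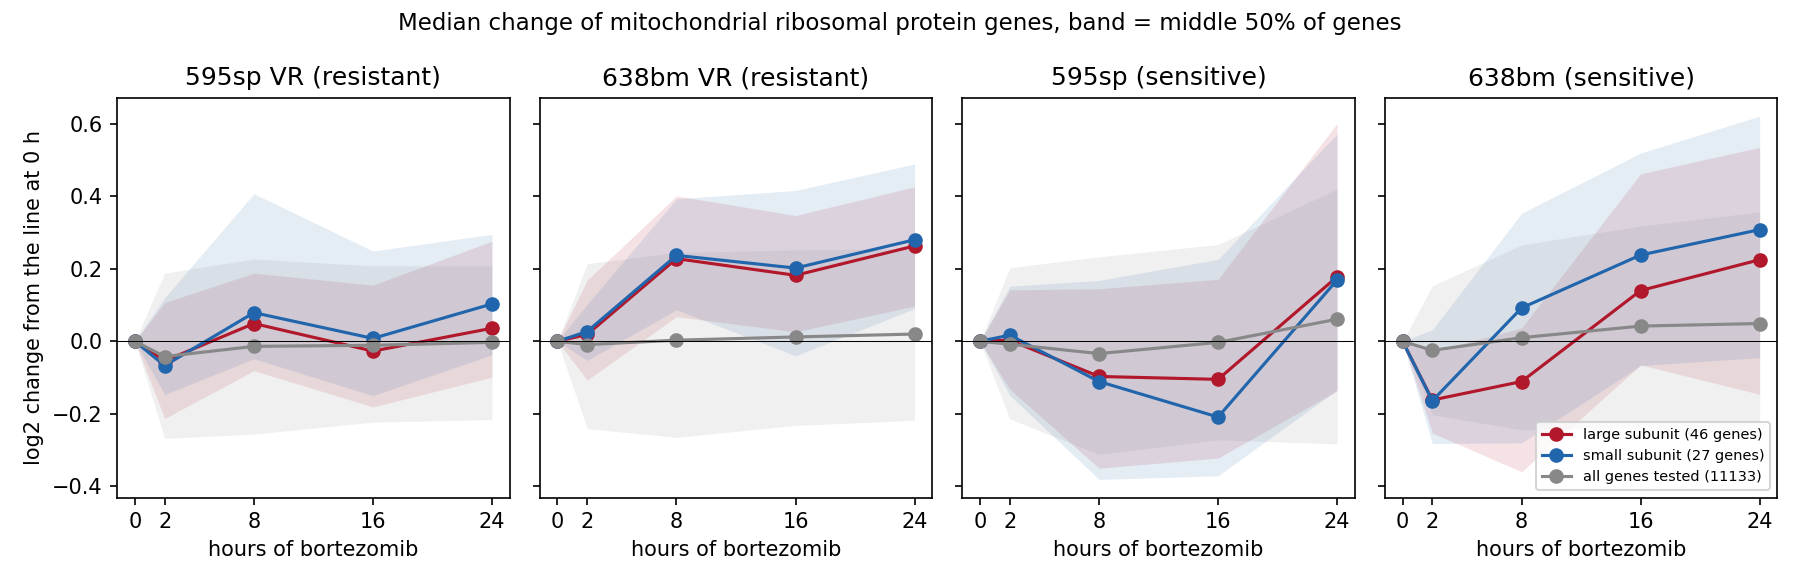
Median log2 change from 0 h against hours of bortezomib in each line, for 46 large subunit genes (red), 27 small subunit genes (blue) and all 11133 genes tested (grey), with bands over the middle 50% of genes. Members lie above all genes in 638bm VR from 8 h on, and in both sensitive lines they reach their highest median at 24 h.

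In the resistant lines 4 of 73 members rose at 8 h (1.72% of all genes rose) and 0 fell (2.27% of all genes fell). None of these 4 passed without the cell line as a block. Mrpl16 lies beside the peptidyl transferase centre. From 0 h to 24 h it read 8.59, 9.30, 9.63, 9.20 and then 9.43 and 9.16 in 595sp VR, and 8.99, 9.18, 9.87, 9.77 and then 9.60 and 9.74 in 638bm VR. Its change at 8 h was 0.96 ± 0.20 (fold 1.94, adjusted p = 0.0129). In both resistant lines every treated array was above the untreated one. In the sensitive lines Mrpl16 read 8.71, 8.58, 8.47, 8.29 and then 8.64 and 8.92 in 595sp, and 8.91, 8.80, 8.95, 9.18 and then 9.19 and 9.10 in 638bm. No change there passed.

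Mrpl20, a bacterial-type protein of the large subunit, rose by 0.72 ± 0.16 at 8 h in the resistant lines (595sp VR 0.73, 638bm VR 0.72, adjusted p = 0.0205). Its changes in the sensitive lines were -0.18 in 595sp and -0.24 in 638bm. Mrps28, a small subunit protein, rose by 0.77 ± 0.20 (adjusted p = 0.0418), with 10.18 and 10.44 at 8 h against 9.52 and 9.55 at 0 h in 595sp VR and 638bm VR. Mrps7, a protein of the head of the small subunit, rose in both arms at 8 h. It read 10.24 and 11.35 at 8 h against 9.79 and 10.43 at 0 h in the 2 resistant lines, and 10.62 and 10.65 at 8 h against 9.89 and 10.01 at 0 h in the 2 sensitive lines. The change was 0.69 ± 0.18 in the resistant lines (adjusted p = 0.0449) and 0.69 ± 0.18 in the sensitive lines (adjusted p = 0.0377).

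The sensitive lines had 2 members that rose at 8 h (2.32% of all genes rose) and 1 that fell (2.98% fell). None of these 3 passed without the cell line as a block or with the sensitive arm fitted alone. Besides Mrps7, the one that rose was Mrps6, the counterpart of bacterial S6 on the platform of the small subunit. From 0 h to 24 h Mrps6 read 8.96, 9.27, 10.44, 10.36 and then 10.05 and 10.25 in 595sp, and 9.93, 9.79, 10.51, 10.84 and then 10.77 and 10.98 in 638bm. Its change was 1.03 ± 0.19 at 8 h (adjusted p = 0.00626), 1.15 ± 0.19 at 16 h (adjusted p = 0.00228) and 1.06 ± 0.19 at 24 h (2.09-fold, adjusted p = 0.00124). In each line all arrays from 8 h on were above those at 0 h and 2 h. In the resistant lines Mrps6 was 0.38 (595sp VR) and 0.73 (638bm VR) higher at 8 h, and this did not pass (adjusted p = 0.129). The gene Slc5a3 overlaps Mrps6, and its own probe stood above background on 1 of 24 arrays. Mrpl57, a short protein found in mitochondria and not in bacteria, fell at 8 h, by 0.92 ± 0.23 (adjusted p = 0.0274), with 1.32 lost in 595sp and 0.51 in 638bm. It read 6.92 at 0 h and 5.61 at 8 h in 595sp, and 6.47 and 5.96 in 638bm. These signals are dim, although above background on 24 of 24 arrays, so the size of the fall has limited meaning.

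At 16 h the picture was split between lines. The large and small subunit medians were -0.03 and 0.01 (595sp VR), 0.18 and 0.20 (638bm VR), -0.11 and -0.21 in 595sp, and 0.14 and 0.24 in 638bm. In the resistant lines 1 member rose (0.683% of all genes) and 0 fell (0.692%). It was Mrpl47, a protein beside the exit tunnel, with a change of 0.67 ± 0.16 (adjusted p = 0.0470). In the sensitive lines 4 members rose (4.87% of all genes) and 1 fell (4.28%). Those that rose were Mrps6, Mrpl47 (0.78 ± 0.16, adjusted p = 0.00734), Mrpl9 (0.73 ± 0.18, adjusted p = 0.0191) and Mrpl1 (0.65 ± 0.18, adjusted p = 0.0357), the last of which forms the mobile stalk at the tRNA exit side. Mrps21, a small protein of the small subunit, fell by 0.80 ± 0.16 (adjusted p = 0.0081). The difference between arms at 16 h passed for 0 members (0% of all genes), with 11 (15.1%) at an unadjusted p under 0.05, against 10.8% of all genes. That at 2 h likewise passed for 0 members (0% of all genes), with 1 (1.37%) at an unadjusted p under 0.05, against 2.85% of all genes.

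After 24 h in the sensitive lines 17 of 73 members rose (23.3%), against 13.1% of all genes, and 2 fell (2.74%), against 9.87% of all genes. The rises were spread over both subunits, 10 of 46 large and 7 of 27 small subunit members. All 19 moved the same way in both lines. The median change was 0.24 for the large and 0.21 for the small subunit, beside 0.06 for all genes tested and 0.09 for the 8598 genes above background on at least 12 arrays. By line, the medians of large and small subunit were 0.18 and 0.17 in 595sp and 0.23 and 0.31 in 638bm. Of all members, 35 (47.9%) were higher and 15 (20.5%) lower in both sensitive lines, against 38.2% and 28.5% of all genes, and 23 differed in sign between the lines. Among the 8598 brighter genes 17.8% rose, and in either direction 30.8% of them were called, against 26% of the members. Left out in turn, the lines gave 7 calls in all, each a rise (9.59%, against 13.6% of all genes called and 7.38% risen), without either resistant line, 9 (12.3%, against 16.3%) without 595sp and 17 (23.3%, against 22.6%) without 638bm. Without the cell line as a block 0 members passed, against 1.35% of all genes.

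Among the members that rose, Mrps6 led by the change in the line that changed less, followed by Mrpl49, Mrpl47, Mrpl46, Mrps7 and Mrps10. Mrpl47 read 10.08, 10.16, 10.58, 10.85 and then 10.85 and 10.77 from 0 h to 24 h in 595sp, and 9.97, 10.09, 10.15, 10.76 and then 10.87 and 10.75 in 638bm. The 24 h arrays of each line lay above its arrays at 0 h, 2 h and 8 h. Its change at 24 h was 0.79 ± 0.16 (fold 1.73, adjusted p = 0.00226). Mrpl46, a protein of the large subunit specific to mitochondria, read 10.77 and 10.51 at 24 h against 9.88 at 0 h in 595sp, and 9.42 and 9.58 at 24 h against 8.81 at 0 h in 638bm. It changed by 0.73 ± 0.19 (adjusted p = 0.0109). Mrps7 changed by 0.76 ± 0.18 (adjusted p = 0.00724).

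For Mrpl49 the choice of probe mattered, whereas for Mrps10 a single dim probe differed from the others. Mrpl49, another large subunit protein specific to mitochondria, read 10.28 and 10.42 at 24 h against 9.58 at 0 h in 595sp, and 11.31 and 11.29 at 24 h against 10.47 at 0 h in 638bm. It changed by 0.80 ± 0.15 (adjusted p = 0.00171) on its brightest probe, whereas its 4 kept probes ranged from -0.08 to 0.80. With the mean of all kept probes the change was 0.39 and did not pass (adjusted p = 0.0762). Mrps10 changed by 0.65 ± 0.18 (adjusted p = 0.0183). Its 4 kept probes gave 0.65, 0.75, 0.64 and -0.04, the last from a probe above background on 13 arrays. Its change passed in 11 of the 13 alternative settings that kept all lines, the mean of kept probes included. Of the 29 members with several kept probes, 23 had all probes on the same side of 0.

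The members that rose also included Mrpl9 (0.86 ± 0.18, adjusted p = 0.00296) and Mrps18c (0.98 ± 0.23, adjusted p = 0.00608), which were higher by 1.13 and 1.57 in 595sp and by 0.59 and 0.40 in 638bm. Mrps18c read 10.65 and 10.95 at 24 h against 9.23 at 0 h in 595sp, and 11.21 and 11.22 at 24 h against 10.82 at 0 h in 638bm, so that the lower starting level belonged to the line with the wider change. Without 595sp, neither passed (adjusted p = 0.106 for Mrpl9 and 0.264 for Mrps18c). Mrpl58, a peptidyl-tRNA hydrolase built into the large subunit that frees stalled ribosomes, rose by 0.63 ± 0.17 (adjusted p = 0.0152). The other members that rose were Mrpl1, Mrpl21, Mrpl30, Mrpl35 and Mrpl37 of the large and Mrps9, Mrps22 and Mrps31 of the small subunit, with changes from 0.47 (Mrpl30) to 0.70 (Mrps31).

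The 2 members that fell were Mrps21 and Mrpl34. Mrps21 read 10.10, 10.19, 9.66, 9.42 and then 9.78 and 9.83 from 0 h to 24 h in 595sp, and 10.74, 10.57, 10.01, 9.82 and then 9.91 and 9.76 in 638bm. All arrays from 8 h on lay below those at 0 h and 2 h in both lines. The change at 24 h was -0.60 ± 0.16 (adjusted p = 0.0158). In the resistant lines it ranged over the 6 arrays from 10.70 to 10.99 in 595sp VR and from 10.38 to 10.50 in 638bm VR, and no change passed. Mrpl34 fell by 0.57 ± 0.19 (adjusted p = 0.0406), by 0.81 in 595sp and 0.34 in 638bm. It was also among the 3 members that were higher in the untreated resistant lines.

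**Figure D4:**
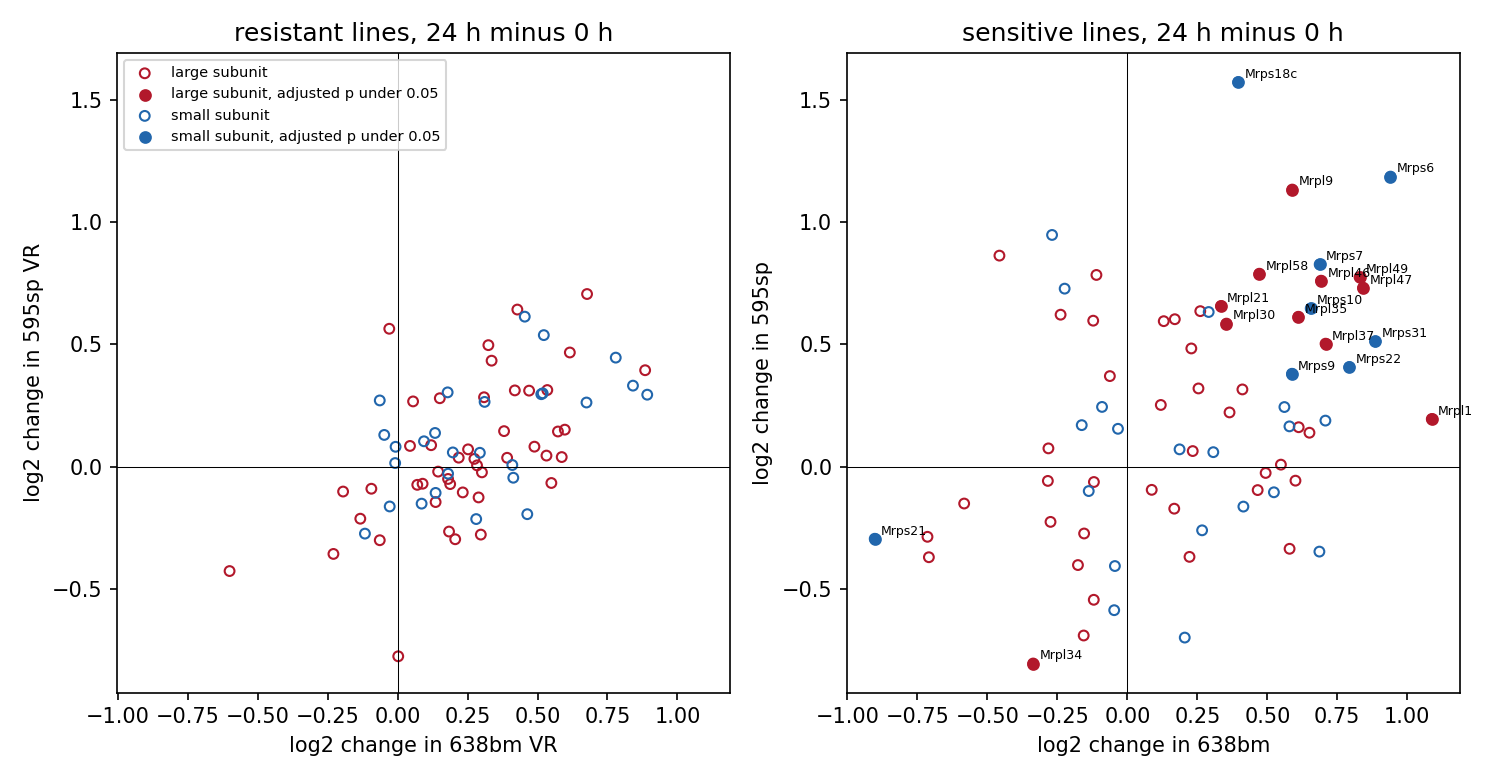
Log2 change of each member from 0 h to 24 h, in 595sp VR (vertical) against 638bm VR (horizontal) on the left and in 595sp against 638bm on the right, with the 2 arrays at 24 h averaged. Red marks the large and blue the small subunit, and filled points passed an adjusted p under 0.05. The 19 filled points, all in the sensitive lines, lie in the upper right (17) and lower left (2) quadrants.

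In the resistant lines at 24 h, 0 of 73 members passed (1.49% of all genes passed in either direction), with 14 members (19.2%, against 13.7% of all genes) at an unadjusted p under 0.05 and a smallest adjusted p of 0.0985. Their medians were 0.15 for the large and 0.14 for the small subunit, beside 0.01 for all genes, and 59 of 73 members (80.8%, against 52.1% of all genes) were above 0. The shift came mainly from 638bm VR, where the medians were 0.26 (large) and 0.28 (small), against 0.04 (large) and 0.10 (small) in 595sp VR. The untreated array of 595sp VR lies in another block of table columns than its treated arrays. With table blocks as a term, the median over all members in the resistant lines was 0.22, beside 0.14 as reported. The part of the blocks was not tested. The difference between arms at 24 h was called for 0 members (1.24% of all genes), with 9 (12.3%, against 16.7% of all genes) at an unadjusted p under 0.05 and a smallest adjusted p of 0.099. The 17 rises in the sensitive lines are therefore not shown to differ from the changes of the same genes in the resistant lines. The rise of Mrps18c, for example, was 0.98 in the sensitive lines, and its change in the resistant lines was 0.53 ± 0.23 (adjusted p = 0.306). The 2 arrays of a line at 24 h differed over the members by an SD of 0.12 in each resistant line, 0.25 in 595sp and 0.14 in 638bm.

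**Figure D5:**
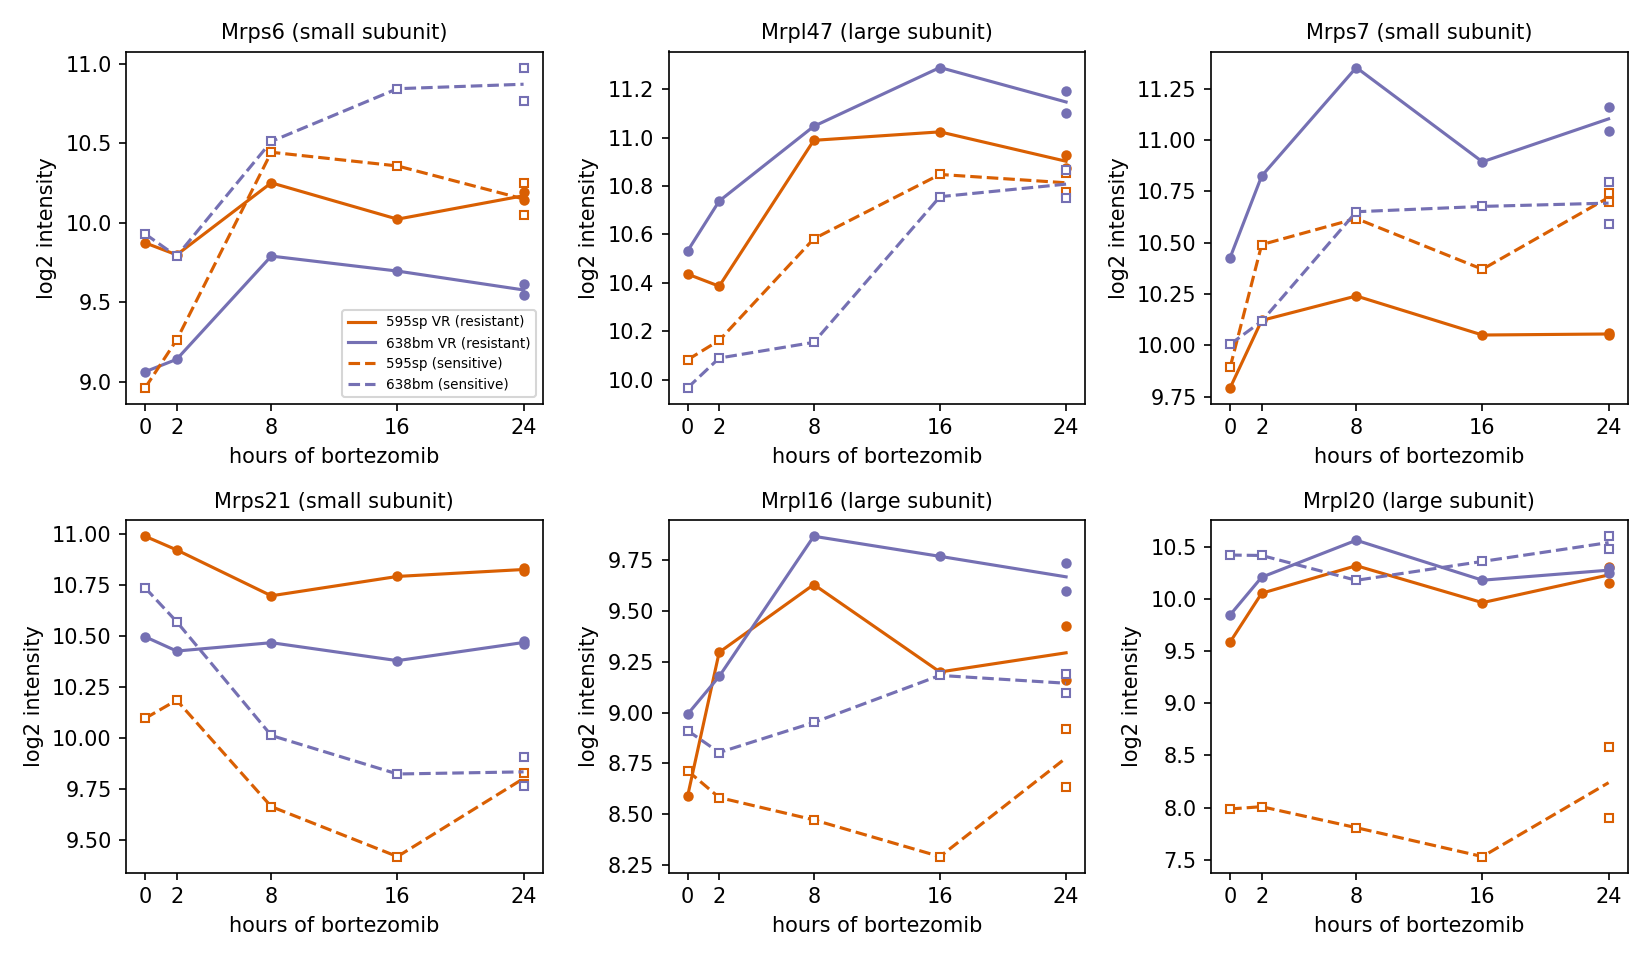
Log2 intensity against hours of bortezomib for 6 members that changed, with a point for each array and lines through the mean of each time, for the resistant lines (solid, filled circles) and the sensitive lines (dashed, open squares). Vertical axes differ between panels and do not start at 0. Mrps21 lies lower from 8 h on in both dashed lines, and Mrpl16 and Mrpl20 are highest at 8 h in both resistant lines.

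The members chosen for a known role mostly did not pass. Mrpl12, a protein of the stalk that receives translation factors and which also binds the mitochondrial RNA polymerase, differed from 0 h by 0.01 ± 0.18 in the resistant and -0.29 ± 0.18 in the sensitive lines at 24 h (adjusted p = 0.988 and 0.286). Mrps30 differed by 0.04 ± 0.19 in the resistant and 0.13 ± 0.19 in the sensitive lines (adjusted p = 0.959 and 0.689). Mrpl18, linked in human cells to the import of 5S ribosomal RNA into mitochondria, was 0.86 higher in 595sp and 0.46 lower in 638bm, and the mean of 0.20 ± 0.26 did not pass (adjusted p = 0.629). In mammals there are 3 forms of the bacterial S18 protein, of which 2 sit in the small and 1 in the large subunit. In the sensitive lines at 24 h Mrps18a differed from 0 h by 0.18 ± 0.16 (adjusted p = 0.450), Mrps18b by 0.17 ± 0.23 (adjusted p = 0.652) and Mrps18c by 0.98, of which the last alone passed. Mrps12 differed by -0.32 ± 0.21 in the sensitive lines (adjusted p = 0.308). Dap3, a GTP-binding protein of the small subunit that does not carry an Mrps symbol, differed by -0.10 ± 0.17 in the resistant and -0.30 ± 0.17 in the sensitive lines at 24 h (adjusted p = 0.848 and 0.219).

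Members varied together to a modest degree. After each line's mean was removed, the median Pearson correlation over the 20 values (all lines and times) was 0.28 between large subunit members, 0.30 between small subunit members and 0.28 across the subunits, against 0.01 between genes in general. The values share lines, arrays and brightness, and the correlations are given as a description.

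Other genes of mitochondrial gene expression were called in both directions in the sensitive lines at 24 h, at a share close to that of all genes: over 6 lists, 9 of 82 genes rose and 12 fell (25.6% in all, against 22.9% of all genes). Of 14 mitochondrial translation factors, 2 rose and 3 fell, among them the release factor Mtrf1l (0.76), the initiation factor Mtif2 (-1.17) and Guf1 (-1.52), whose bacterial counterpart moves ribosomes backwards. Of 26 genes of ribosome assembly and rRNA processing, 4 rose and 1 fell, among them Mterf3 (1.11) and Mterf4 (0.82), which act in biogenesis of the large subunit, and Noa1 (-1.05), a GTPase. Of 14 mitochondrial aminoacyl-tRNA synthetases, 0 rose and 3 fell (Iars2 -1.52, Vars2 -1.39 and Mars2 -0.70). Of 10 genes of mitochondrial DNA transcription and replication, 1 rose (Mterf1a, 0.62) and 1 fell (Polrmt, the RNA polymerase, -1.15). Of 14 mitochondrial chaperones and proteases, 2 rose and 4 fell, with Spg7 (-1.02), Trap1 (-0.73) and Htra2 (-0.93) leading by p-value. Of 4 other mitochondrial ribosomal proteins measured, Dap3 included, 0 passed.

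The subunits of oxidative phosphorylation, which include the partners of the proteins made by this ribosome, lay lower in the sensitive lines at 24 h. Of 72 subunits measured, 1 rose (1.39%, against 13.1% of all genes) and 11 fell (15.3%, against 9.87%), with a median of -0.26, beside 0.06 for all genes and 0.23 for the 73 members. The 3 with the smallest p were Uqcr11 of complex III (-1.22), Ndufa7 of complex I (-0.85) and Cox6a1 of complex IV (-1.06). The median was -0.07 in 595sp and -0.44 in 638bm. Of 54 genes matched as cytosolic ribosomal proteins, 1 rose and 1 fell (1.85% each), with a median of 0.05. The one that rose, Rps19bp1, is a binding partner and not itself a ribosomal protein, and the one that fell was Rps15a (-0.87).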

How the data were processed

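Total RNA was amplified, biotinylated and hybridised to 1-colour bead arrays, per the labels' protocols. The deposited main table gives an average bead intensity for each of 45281 probes on 24 arrays, not normalized per the file headers. A second table of intensity values, processed by the authors, served as an alternative. Here, normexp (limma 3.58.1, R 4.3.3) with an offset of 16 corrected the background. Arrays were then quantile normalized, and log2 was taken last. Small values are pulled together by the offset, which lowers the fold of dim genes. A probe counted as above background where its log2 signal lay over the array's mode by at least 2.33 times the SD estimated from values below that mode. Detection p-values were not used. Symbols came from the platform annotation.

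Arrays of the same line and time were averaged. Over all 11133 genes, lmFit and eBayes gave the changes from 0 h and their difference between arms, with terms for the cell line and for each time within an arm (residual degrees of freedom 8, prior 7.71), and the untreated comparison with a term for line origin (9 and 2.93). A gene was called at a Benjamini-Hochberg adjusted p under 0.05. Times are paired because each line runs through all of them: the deviation of a line from its arm's mean correlated across genes between times, with r from 0.822 to 0.925 for resistant and from 0.771 to 0.907 for sensitive lines. For 4 of the 6 arrays of 638bm VR, title and timepoint characteristic give different times, and the title was followed.

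Members named were all those called in a direction if at most 6, otherwise the 6 whose less affected line moved most, those with probes over 0.5 apart that disagree, and genes listed for their role. In the untreated comparison the naming followed the stricter rule, which 0 members passed. Mrpl21, although described above, is therefore not among the named members. Other lists name up to 3 genes by p. Members, lists, motifs and this rule were chosen with earlier results of these data known.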

Additional observations from a re-analysis of the deposited data

Results flagged for a closer look

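In 6 cases the 2 resistant lines moved one way from 0 h and the 2 sensitive lines the other, among 88 combinations of 22 named genes and 4 times, and 1 further case concerns the large subunit as a whole. The 6 cases are 6.82% of the combinations looked at. Over all genes and times 9.49% were split in this way, and over all 73 members 11.6%, with 16.4% of members and 9.56% of all genes at 8 h. Mrpl16 at 2 h differed from 0 h by 0.71 (595sp VR) and 0.19 (638bm VR), against -0.13 (595sp) and -0.11 (638bm), a difference of 0.57. Mrpl20 at 8 h differed by 0.93 (0.73 and 0.72 in the resistant lines, against -0.18 and -0.24 in the sensitive lines), and at 16 h by 0.61 (0.38 and 0.33, against -0.46 and -0.06). Mrps18a at 8 h differed by 0.52, Mrpl12 at 8 h by 0.28 and Mrpl49 at 2 h by 0.066. None of these 6 differences passed the direct test in limma. The large subunit median at 8 h was 0.24 higher in the resistant lines (medians 0.05 and 0.23, against -0.10 and -0.11 in the sensitive lines), a difference that was not tested. At 24 h, none of the 44 groups of 4 arrays examined held an array that stood apart from the other 3. Each group holds 2 arrays of each of 2 lines, so a difference between the lines widens the range and can hide such an array. The result is therefore no check of single arrays. Mrpl52, with its discordant arrays in 595sp, was not among the named genes examined.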

How the results depend on the processing

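Alternative settings were followed for the 26 results of named members that had passed in the main fit. Of their 438 values, 0 changed direction, 318 still passed and 120 no longer passed. Because these results were chosen for having passed, none could newly pass and a change of direction was unlikely. Members that were called but not named under the rule, Mrpl21 among them, are not in this count. The fit without the cell line as a block called 0 members in every comparison (at most 1.35% of all genes), against 3, 5 and 19 in the sensitive lines at 8, 16 and 24 h and 4 and 1 in the resistant lines at 8 and 16 h. The paired analysis is the main one because the same line runs through all times. Counts below are of members called either way, with the share of all genes called under the same setting. Counts nearer to the one reported are mostly left out, so an unlisted setting is not always unchanged. Members called at 8 h in the sensitive lines numbered 5 with an offset of 50 (5.82% of all genes), no background correction or the authors' table (5.85%), median scaling (5.78%) or the filter of 12 arrays (7.78%), 6 with table blocks as a term (6.74%), and 0 with each arm alone (1.42%), beside 3 and 5.3% as reported. At 16 h they numbered 10 with offset 50 (10%), 9 without correction or with the authors' table (10.1%), 3 with median scaling (7.49%) and 1 with the arm alone (2.73%), beside 5 and 9.15%. At 24 h they numbered 7 with the arm alone (13.6%), 14 with no filter (12%) and 21 with offset 50 (23%), beside 19 and 22.9%. With the first or second 24 h arrays they were 17 (22.5%) or 16 (22.1%). Median scaling gave 13, which is 17.8% of members, below the 20.7% of all genes. In the resistant lines the counts at 8 h were 7 with median scaling (4.46%), 2 with the second 24 h arrays (3.23%) and 1 with times of the characteristic (1.63%), beside 4 and 3.99%. That count was 6 with offset 50 (4.22%), no correction or the authors' table (4.17%), table blocks (6.31%) or the arm alone (8.23%). At 16 h they were 3 with median scaling (2.43%), 2 with the arm alone (2.99%) and 0 with no filter, either 24 h array alone or times of the characteristic (0.359 to 1.29%), beside 1 and 1.37%. At 24 h they were 2 with offset 50 (1.62%), 6 with median scaling (2.82%) and 1 without correction, with the authors' table or with the mean of probes (1.46 to 1.62%), beside 0 and 1.49%. Untreated, they were 7 with offset 50, no correction, the authors' table or the mean of probes (6.27 to 6.67%) and 1 with the second 24 h arrays (4.79%), beside 3 and 5.67%.

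Without each line in turn, the counts ranged from 0 to 3, 1 to 5 and 7 to 17 at 8, 16 and 24 h in the sensitive lines, from 0 to 6 at 8 h and 0 to 2 at 16 h in the resistant lines, from 0 to 2 for the difference at 24 h and from 8 to 29 untreated. The shares of all genes ranged from 1.42 to 6.41%, 2.73 to 8.35% and 13.6 to 22.6% (sensitive), 0.00898 to 8.23% and 0 to 2.99% (resistant), 0 to 7.5% (difference) and 15.7 to 34.5% (untreated). Leaving out a line changed the medians as follows: sensitive 8 h large -0.16 to -0.10, sensitive 24 h large 0.18 to 0.24 and small 0.17 to 0.31, resistant 24 h small 0.10 to 0.28, difference at 8 h small 0.046 to 0.27, untreated small 0.21 to 0.47.

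Median scaling moved the all-gene median at 8 h to -0.10 in the sensitive lines and 0.14 for the difference. Under it the medians were -0.29 (large) and -0.21 (small) in the sensitive lines at 8 h, 0.25, 0.25 and 0.31 (small) in the resistant lines at 8, 16 and 24 h, 0.53 (large) and 0.42 (small) for the difference, and 0.42 (small) untreated. The large subunit at 8 h in the sensitive lines was -0.13 with offset 50, -0.14 without correction, with the authors' table or with table blocks, and -0.12 with the mean of probes. The small subunit difference at 8 h was 0.21 (mean of probes), 0.32 (blocks) and 0.11 (times of the characteristic), and its resistant median at 8 h was 0.25 (blocks). With Mrps30 and Mrps18a counted in the large subunit, the untreated small subunit median was 0.33. Members higher in the resistant line at all times numbered 26 to 37 under the 9 alternatives run, beside 29 as reported (9.89% of all genes). The shares of all genes under these alternatives are not given here, so the range cannot be set against them. That assignment and the count of members higher at all times were added after the data were seen. The cause of these changes was not tested. Mrpl39, Mrpl45 and Mrpl51 stood above background on only 19, 20 and 23 of 24 arrays, and the low end of their range has limited meaning.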

Other observations

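Before treatment, 5 of 82 genes on 6 lists of mitochondrial gene expression without an Mrpl or Mrps symbol were called between resistant and sensitive lines (6.1%, against 5.67% of all genes). The lists of assembly and rRNA processing (26 genes), aminoacyl-tRNA synthetases (14) and chaperones and proteases (14) held 0 of them. The median difference, resistant minus sensitive, was 0.31 for DNA transcription and replication, 0.23 for assembly and rRNA processing and 0.225 for other mitochondrial ribosomal proteins. It was 0.11 for translation factors, -0.11 for chaperones and proteases and -0.17 for the synthetases, beside 0.09 for all genes. A median above that of all genes was thus not confined to Mrpl and Mrps genes. In the 595sp and 638bm pairs it was 0.36 and 0.34 for DNA transcription and replication. For other mitochondrial ribosomal proteins it was 0.20 and 0.27. The pairs differed for assembly and rRNA processing (-0.02 and 0.30) and for translation factors (-0.02 and 0.09), beside 0.08 and 0.07 for all genes. Gadd45gip1, a protein of the large subunit without an Mrpl symbol, was 0.82 ± 0.16 higher in the resistant lines (595sp pair 0.89, 638bm pair 0.75, adjusted p = 0.0146). Mrrf, which recycles ribosomes after termination, was 0.81 ± 0.21 higher (adjusted p = 0.0478), and Twnk was 0.81 ± 0.19 higher (adjusted p = 0.0314). Mtif2 was lower by 1.78 ± 0.34 (adjusted p = 0.014) and Polrmt by 1.22 ± 0.24 (adjusted p = 0.0146). These 5 genes are named because they were called, after their values were seen.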
